A study of Mus musculus with 9 samples.

Results

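AP-1 (activator protein 1) is a family of transcription factors that bind DNA as pairs through a basic leucine zipper (bZIP). Its 10 genes described here are Fos, Fosb, Fosl1 and Fosl2 of the Fos family, Jun, Junb and Jund of the Jun family, and the related Atf3, Batf3 and Maff. They were picked by symbol, from knowledge of the family and with earlier results of these data known, out of 23420 genes measured in regulatory T cells (Tregs), the CD4 T cells that express Foxp3 and hold immune reactions in check. RNA was sequenced from 9 libraries in 3 groups of 3, all from mice of WT genotype sorted for the YFP signal of a Foxp3 reporter, and strain and age were not given in the labels. The groups were Tregs from the synovium, the lining of the joint, of mice with collagen-induced arthritis, Tregs from the draining lymph nodes of mice with collagen-induced arthritis, and Tregs from the draining lymph nodes of control mice that had no treatment. Paws and nodes were digested before sorting. By the mouse numbers in the titles, the synovial and node libraries with the same number came from the same arthritic mouse, whereas the control mice were other animals. The study compared synovial with node Tregs in arthritis and placed control node Tregs beside them.

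Fos proteins do not pair with each other and bind DNA by pairing with a Jun protein, while Jun proteins can also pair among themselves and with factors such as Atf3. The proteins bind a short palindromic site, and mitogen-activated protein (MAP) kinases control them both by switching on transcription of Fos and Jun and by phosphorylating the proteins. In T cells AP-1 joins NFAT downstream of the antigen receptor, and many AP-1 genes are immediate-early genes, whose RNA rises within minutes of a stimulus and is short-lived.

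Fos and Jun ranked the libraries of each group in the same order, as given further on, so the DNA just before their start sites is shown. Both windows hold 250 bases that end at the annotated start, come from RefSeq on GRCm38.p6 and overlap no annotated exon of the 10 members. Overlap with exons of other genes was not checked. The Fos window is chr12:85473640-85473889 on the plus strand and the Jun window is chr4:95052223-95052472 on the minus strand. Capitals mark motif matches.
Fos: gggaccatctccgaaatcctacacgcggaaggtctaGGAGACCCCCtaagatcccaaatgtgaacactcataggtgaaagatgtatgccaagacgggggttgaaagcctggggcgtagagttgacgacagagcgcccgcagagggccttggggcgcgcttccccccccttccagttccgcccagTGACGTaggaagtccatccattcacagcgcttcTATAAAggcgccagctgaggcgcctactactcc
Jun: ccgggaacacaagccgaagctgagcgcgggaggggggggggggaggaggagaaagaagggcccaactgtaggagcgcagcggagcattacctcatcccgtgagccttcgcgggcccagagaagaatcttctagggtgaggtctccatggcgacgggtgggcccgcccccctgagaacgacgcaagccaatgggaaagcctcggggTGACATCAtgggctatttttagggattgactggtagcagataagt
In the Fos window the capitals are, from left to right, a match to the NF-kB site on the opposite strand (214 to 205 bases before the start), the core TGACGT of the cyclic AMP response element (66 to 61 bases before) and the TATA box TATAAA (33 to 28 bases before). In the Jun window they are TGACATCA, the AP-1 variant known from the Jun promoter (45 to 38 bases before). Both strands were searched for 6 motifs, which were these 4, the AP-1 site TGANTCA and the CArG box bound by serum response factor. Of 32536 RefSeq promoter windows of 250 bases, 7.28% held the NF-kB site, 6.50% TGACGT, 12.3% TATAAA, 2.84% TGACATCA, 6.73% TGANTCA and 1.48% the CArG box. Of the 9 members with a window, none held TGANTCA or the CArG box. Sites further upstream were not searched, and not every window lies just before the gene. The Jund window ends at base 70697738, before the GENCODE start at 70698949. The bases just after the windows of Junb and Jund were not found in their transcripts. All 250 bases of the Fosl2 window lie in annotated exons. The NF-kB site also matched in the windows of Fosb, Fosl2 and Maff, TGACGT in those of Atf3 and Maff, and TGACATCA in a window of Maff. Maff has 3 windows and the other members with a window have 1, while the percentages above are per window. The Maff matches lie in windows 2 and 3, and 95 bases of window 3 lie in annotated exons. All these are matches of letters in short windows and describe the sequence only.

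The libraries held 11300406 to 12855435 reads assigned to genes, and 3 reads corresponded to 2.61 to 3.52 normalized counts. Foxp3 (170 to 538 normalized counts), Cd3e (9547 to 12335) and Cd4 (4758 to 10036) were present in all 9 libraries. Synovial library 3 stood apart in fibroblast transcripts: 10 fibroblast markers other than Thy1, which T cells also express, and Prg4 summed to 3767 normalized counts there, against 186 and 151 in synovial libraries 1 and 2. All 12 markers summed to 3117 to 7727 in synovium, 3787 to 4632 in arthritic nodes and 4211 to 4388 in control nodes. Prg4 was lower in synovium (512, 314 and 761) than in arthritic nodes (953 to 1164) and control nodes (968 to 1412). The tissue difference of each tested member and the list counts are also given without synovial library 3. Levels below are normalized counts of libraries 1, 2 and 3 in that order. Fold changes are log2 differences of limma on log2(normalized count + 1) ± standard error, with Benjamini-Hochberg adjusted p-values over 11357 genes tested, and a gene is called changed at an adjusted p under 0.05. In bulk RNA, fewer cells expressing a gene and less RNA per cell cannot be told apart.

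Between synovial and node Tregs of arthritic mice, 7 of the 8 members tested rose in synovium and none fell. These were Fos, Fosb, Fosl2, Junb, Jund, Atf3 and Maff, and Jun did not pass the test. Over all genes tested, 33.8% were called in either direction and 17.9% were called higher. The median log2 difference was 4.16 over the 8 members and -0.00 over all genes. Fosl1 and Batf3, with means of 1.91 and 4.31 over the 9 libraries, were under the minimum mean of 10 and were not tested. The same 7 members had synovial libraries that lay wholly above the node libraries, a separation that 25.2% of all genes tested showed. Without synovial library 3 all 7 calls held.

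**Figure D1:**
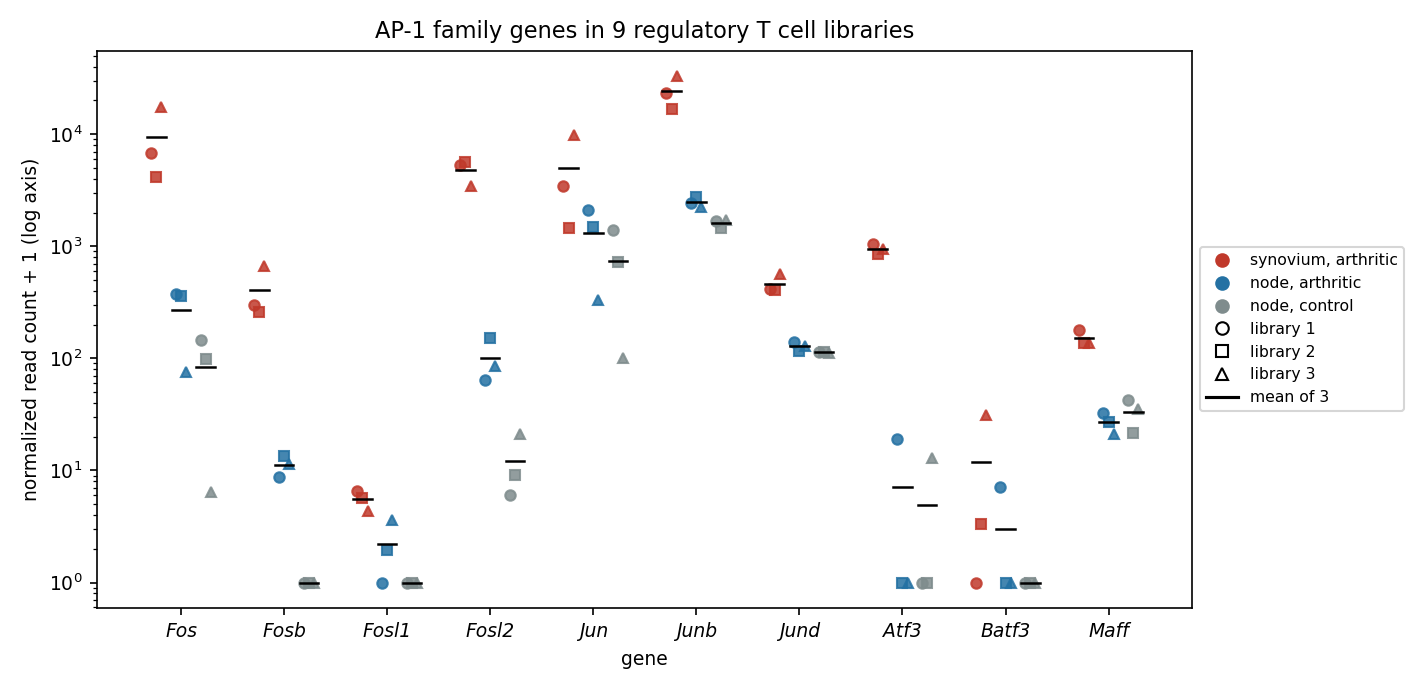
Normalized read counts plus 1 of the 10 AP-1 genes on a log axis, with 1 symbol per library, colours for the 3 groups and bars for the mean of 3 libraries. Among the 8 tested genes, synovial libraries lie above both node groups for Fos, Fosb, Fosl2, Junb, Jund, Atf3 and Maff. Those of Jun overlap the arthritic node. Those of Fosl1, which was not tested, also lie above, near the floor and on 12 synovial reads in all.

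Fosl2, which encodes the Fos family member Fra-2 (chr5:32135801-32157842 on GRCm38, plus strand), had the smallest adjusted p of the Fos family. Its levels were 5317, 5675 and 3455 in synovium, 63.5, 152 and 83.9 in arthritic nodes and 5.02, 8.12 and 20.1 in control nodes. All 3 synovial libraries were far above every node library, and the arthritic nodes stood wholly above the control nodes. Synovial Tregs had 48.3 times the mean level of arthritic node Tregs (4816 ± 1191 against 99.8 ± 46.4, mean ± SD, n = 3), a log2 difference of 5.64 ± 0.47 (adjusted p = 2.34e-06). Within mice 1, 2 and 3 the synovium held 83.7, 37.3 and 41.2 times the node's level. Without synovial library 3 the log2 difference was 5.87.

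Fos, the founding member of its family (chr12:85473890-85477273, plus strand), read 6792, 4110 and 17607 in synovium. It read 370, 360 and 74.3 in arthritic nodes and 145, 97.5 and 5.48 in control nodes. Every synovial library exceeded every node library, but each group also spread widely, with the highest library 4.28 times the lowest in synovium, 4.99 times in arthritic nodes and 26.4 times in control nodes. The tissue difference was 5.19 ± 1.00 (adjusted p = 0.00167). It was 4.61 (adjusted p = 0.0136) without synovial library 3 and 4.43 without arthritic node library 3, the library with the lowest Fos of its group. By mouse the synovium held 18.3, 11.4 and 237 times the node's level.

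Fosb (chr7:19302696-19310051, minus strand), a close relative of Fos, had 300, 256 and 662 normalized counts in synovium and 7.83, 12.5 and 10.5 in arthritic nodes. No read of it was counted in any control node library, where 3 reads is the limit that a count of 0 allows. The tissue difference was 5.06 ± 0.71 (adjusted p = 0.00017), and 4.65 (adjusted p = 0.00128) without synovial library 3. Fosl1, which encodes Fra-1 (chr19:5447547-5455946, plus strand), stayed near the floor, with 5.51, 4.70 and 3.37 in synovium, 0, 0.962 and 2.62 in arthritic nodes and 0 in all control nodes. Its synovial values rest on 12 reads in all, and 1163 bases of its exons overlap Ccdc85b on the other strand.

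Among the Jun family, Junb (chr8:84974484-84978718, minus strand), often described as a brake on Jun, had the highest level in every library. Its levels were 23374, 16932 and 33030 in synovium, 2437, 2738 and 2243 in arthritic nodes and 1692, 1442 and 1710 in control nodes. The 3 groups formed separate steps. The tissue difference was 3.26 ± 0.19 (adjusted p = 1.42e-07), which is 9.89 times by the ratio of means, and 3.01 without synovial library 3. Its exons share 173 bases with Prdx2 on the other strand, and Prdx2 stayed between 1912 and 2302 in all 9 libraries.

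Jund (chr8:70698949-70700616, plus strand), the Jun gene known for steady expression in resting cells, read 412, 403 and 566 in synovium, 140, 116 and 128 in arthritic nodes and 112, 114 and 110 in control nodes. Node libraries lay close together and all synovial libraries lay above them, with a tissue difference of 1.82 ± 0.26 (adjusted p = 0.000191), and 1.66 without synovial library 3. Of its 1668 exon bases, 877 overlap the antisense gene Gm11175. Whether reads were counted by strand is not given in the sources used here, so reads of the 2 genes cannot be told apart.

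Jun itself (chr4:95049034-95052222, minus strand) read 3452, 1457 and 9935 in synovium, 2118, 1484 and 328 in arthritic nodes and 1386, 719 and 100 in control nodes. Synovial and arthritic node libraries overlapped, because synovial library 2 was below 2 of the node libraries. The tissue difference was 1.87 ± 0.93, with a 95% interval from -0.16 to 3.89 (adjusted p = 0.145). The adjusted p lay between 0.0643 and 0.453 over 20 alternative settings. By mouse, the synovium held 1.63, 0.982 and 30.3 times the node's level, so the mean rests largely on mouse 3. Without synovial library 3 the difference was 1.15 (adjusted p = 0.437). In the authors' deposited table Jun had a log2 fold change of 1.89 and an adjusted p of 0.140. Of its 3189 exon bases, 232 overlap the antisense gene Junos, and reads there cannot be assigned by strand here.

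Atf3, a stress-induced bZIP factor (chr1:191170296-191218039, minus strand), was near absent from nodes and abundant in joint Tregs. It read 1056, 850 and 937 in synovium, 18.3, 0 and 0 in arthritic nodes and 0, 0 and 11.9 in control nodes. The 3 synovial libraries lay within a narrow range, and 4 of the 6 node libraries had no read. The tissue difference was 8.46 ± 1.25 (adjusted p = 0.000251). Its size depends on how libraries at 0 are treated: the ratio of means was 156, the log2 difference was 6.83 with 5 added in place of 1 and 9.88 without arthritic node library 1, and it was 7.25 ± 2.03 (adjusted p = 0.00194) in the authors' deposited table. The call held in all 20 alternative settings, with a difference of 8.47 without synovial library 3.

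Maff, a small Maf protein with no activation domain of its own (chr15:79346621-79359076, plus strand), read 176, 137 and 137 in synovium, 31.3, 26.0 and 20.1 in arthritic nodes and 41.2, 20.8 and 34.7 in control nodes. The tissue difference was 2.51 ± 0.48 (adjusted p = 0.00151), or 2.57 without synovial library 3, and the ratio within mice was 5.63, 5.29 and 6.82. Batf3 (chr1:191097847-191108945, plus strand), best known for the development of cross-presenting dendritic cells, read 0, 2.35 and 30.3 in synovium, 6.09, 0 and 0 in arthritic nodes and 0 in control nodes. Nearly all its synovial signal came from library 3. Clec9a, a marker of those dendritic cells, was at 0 in all 9 libraries and Itgax was at 0 in all synovial libraries. Xcr1 read 307, 540 and 471 and Zbtb46 read 537, 538 and 607 in synovium. In the node libraries Xcr1 read 19.2 to 42.4 and Zbtb46 read 0 to 62.9. The 10 dendritic markers summed to 13105 to 16118 in synovium, 4532 to 5471 in arthritic nodes and 3099 to 4781 in control nodes. Most of each sum was Cd74, an MHC class II chaperone (11868 to 14727, 4356 to 5228 and 2987 to 4677), and H2-Aa overlapped between the groups. Their part in the Batf3 values was not tested.

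**Figure D2:**
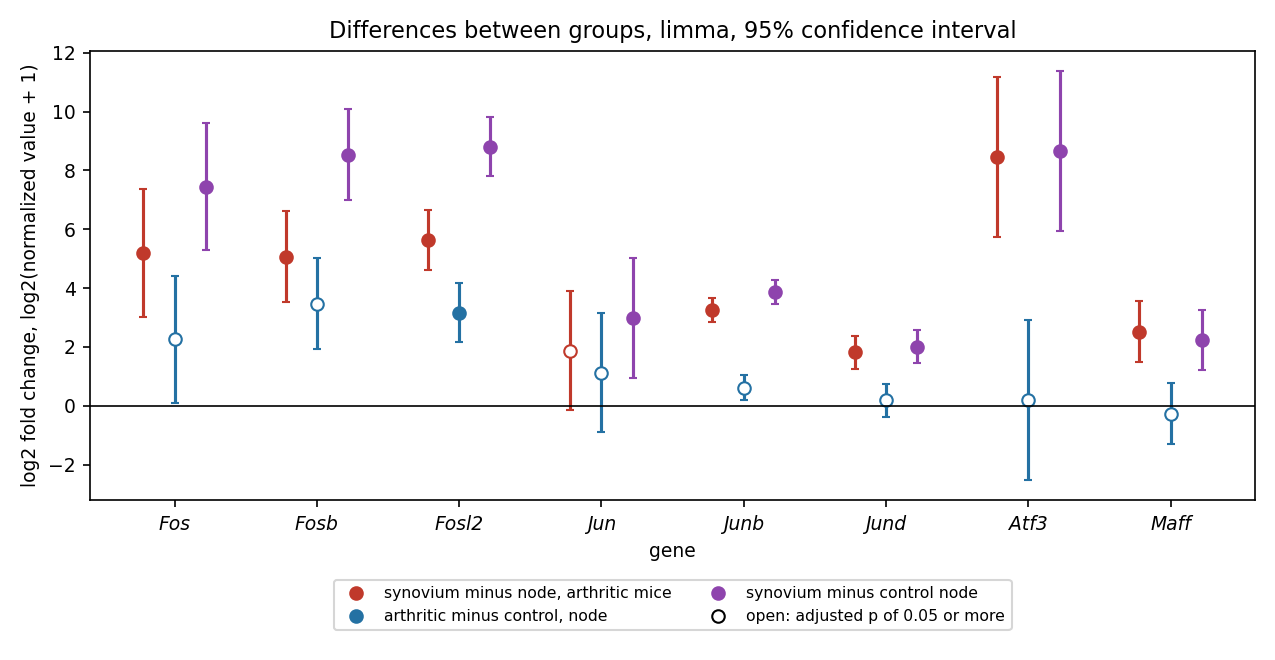
Log2 differences from limma with 95% confidence intervals for the 8 tested members in the 3 comparisons, with open symbols for an adjusted p of 0.05 or more. Intervals are narrow for Junb and Jund and wide for Fos, Jun and Atf3, and Fosl2 is the member with a filled symbol between the node groups.

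Between Tregs from the nodes of arthritic and control mice, few genes passed the test: 39 genes, 0.343% of those tested, were called, 38 of them higher in arthritis. Fosl2 was the member called, 1 of 8. Its mean of 99.8 ± 46.4 in arthritic nodes was 9.01 times the 11.1 ± 7.96 in control nodes (log2 difference 3.17 ± 0.47, adjusted p = 0.0144). The call was lost in 6 of 20 alternative settings, with adjusted p = 0.339 with the mouse number as a block, 0.271 with only the 2 node groups in the fit, 0.146 without a variance trend, 0.0503 without synovial library 1, 0.123 without arthritic node library 2 and 0.0640 without arthritic node library 3. In this comparison the block joins arthritic and control mice that share only a number, not an animal. The size of the Fosl2 difference moved less, from 2.76 to 3.67 when libraries were left out.

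Fosb was at least 3.64-fold higher in arthritic than in control nodes when the control libraries were set at 3 reads, but rests on 34 reads and did not pass (adjusted p = 0.0831, in 4 of 20 alternative settings under 0.05). The other members also did not pass. Junb differed by 0.61 ± 0.19 (adjusted p = 0.321), Jund by 0.19 ± 0.26 (0.897), Fos by 2.25 ± 1.00 (0.536), Jun by 1.12 ± 0.93 (0.794), Atf3 by 0.19 ± 1.25 (0.985) and Maff by -0.28 ± 0.48 (0.922). The 95% interval of Maff ran from -1.31 to 0.76 and that of Jund from -0.38 to 0.75. At an unadjusted p under 0.05, 1031 genes and 4 of 8 members passed (Fos, Fosb, Fosl2 and Junb). The median was 0.87 over the 8 members and 0.01 over all genes.

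Fosb, Fosl2, Junb and Jund had 3 arthritic node libraries wholly above the 3 control node libraries, 4 of 8 members against 7.89% of all genes tested. The same 4 stepped up without overlap from control node to arthritic node to synovium, which 2.89% of genes did. Fos and Jun did not, since their node groups overlapped, and neither did Atf3 and Maff. Of the 4 that did, only Fosl2 was called between the node groups. Jund was 1.14 times higher in arthritic than in control nodes by the ratio of means, and Fosb had 34 reads in arthritic nodes.

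Synovial Tregs were also set against control node Tregs, a comparison that differs in both tissue and disease and shares its libraries with the others. All 8 tested members rose, where 21.6% of genes were called higher. Fosl2 rose by 8.81 ± 0.47 (435 times by the ratio of means, adjusted p = 4.23e-08), Fos by 7.45 ± 1.00 (9.32e-05), Junb by 3.87 ± 0.19 (2.48e-08), Jund by 2.01 (6.98e-05), Atf3 by 8.66 (0.000166) and Maff by 2.23 (0.00271). Fosb was at least 144-fold higher (adjusted p = 1.82e-06). Jun rose by 2.98 ± 0.93 (adjusted p = 0.0229), a call lost without synovial library 1 (0.0566), synovial library 3 (0.113) or control node library 3 (0.0858), and without a variance trend (0.0837). Without synovial library 3 the other 7 calls held, with Fos at 6.87, Fosl2 at 9.03, Junb at 3.63, Jund at 1.85, Atf3 at 8.66 and Maff at 2.29. The median was 5.66 over the 8 members, 5.52 with Fosb at its bound, and 0.02 over all genes.

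Fos and Jun moved together from library to library. Within synovium both were highest in library 3 and lowest in library 2, and within each node group both were highest in library 1 and lowest in library 3. The same order in all 3 groups was shown by 64 of 11357 genes (0.564%), Fos and Jun included, and by no other member. Of 27 tested genes on a list of other immediate-early and digestion-induced genes, 0 showed it. This order was looked up after the values were seen, and libraries of the same number in the control group share no animal with the others. From lowest to highest library Jun spread 6.82 times in synovium and 6.46 times in arthritic nodes, more than Fos, and 13.8 times in control nodes, less than Fos.

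**Figure D3:**
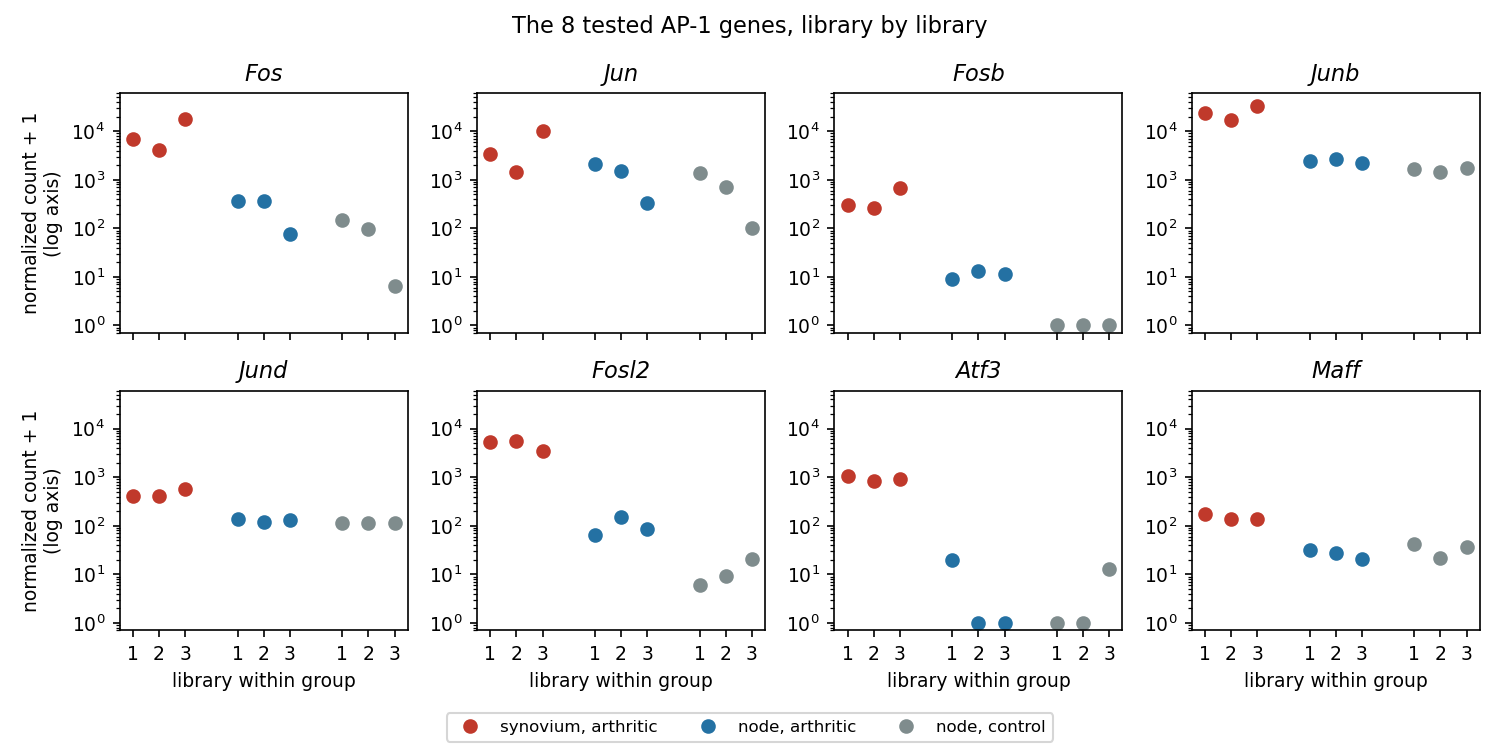
Normalized counts plus 1 on a log axis for the 8 tested members in libraries 1 to 3 of each group. Fos and Jun share the same order of libraries within each group, while Fosl2, Atf3 and Maff do not follow it.

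The ratio of Fos to Jun, per kb of exon, spread less within each group than either gene. It was 2.67, 3.82 and 2.40 in synovium, 0.237, 0.329 and 0.307 in arthritic nodes, and 0.141, 0.184 and 0.0740 in control nodes. The synovial ratios lay wholly above those of both node groups. The node groups did not overlap either, but the control ratios spread over a wider range than the gap to the arthritic nodes, and control library 3 had 5.48 normalized counts of Fos. Fos RNA per kb exceeded Jun RNA in each synovial library and was below it in each node library. In mouse 3, where Jun alone was 30.3 times higher in synovium than in node, the ratio still lay inside the range of mice 1 and 2 in the node and just under it in synovium.

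In synovium the order of library 3, then 1, then 2 held for 5 of 8 members (Fos, Fosb, Jun, Junb and Jund), against 21.7% of all genes tested and 8 of 27 other immediate-early genes, again counted after the values were seen. Fosl2 was lowest in library 3 and Atf3 and Maff were highest in library 1. Library 3 was also the one with fibroblast transcripts: Col1a1 read 38.6, 1.17 and 402 and Dcn 16.5, 25.8 and 455 in the 3 synovial libraries. In arthritic nodes the 10 fibroblast markers summed to 1.74, 26.0 and 227 and in control nodes to 8.03, 16.2 and 37.4, so library 3 had the highest sum and the lowest Fos in both node groups. Their part in the library order was not tested.

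Digestion is known to induce immediate-early genes, and all 3 groups were digested. The 28 other immediate-early and digestion-induced genes summed to 251396, 286448 and 258718 in synovium, 85261, 87234 and 62036 in arthritic nodes and 70839, 69564 and 60574 in control nodes. Of 27 tested, 23 rose in synovium against the arthritic node and 1 fell (median log2 difference 1.68), beside 17.9% of all genes called higher. Without synovial library 3, 21 rose and 1 fell, beside 1824 of 11357 genes called higher. Hspa1a, a heat shock gene, read 9325, 11453 and 13698 in synovium and at most 27.9 in any node library, and Nr4a2 and Klf4 rose by 5.93 and 5.58. Egr2 fell by 1.57 ± 0.24 (adjusted p = 0.000294), and Egr1, a classic partner of Fos in such responses, differed by 0.05 ± 0.49 (adjusted p = 0.949), with 626, 301 and 2018 in synovium. How much of the AP-1 difference arose during digestion was not tested.

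Per kb of exon, which puts genes of different length on a common scale, Junb had the highest mean of the 10 members in every group. Batf and the other bZIP factors described below were not put on this scale. In synovium the order of mean levels per kb was Junb (10624), Fos (4040), Jun (1552), Fosl2 (497), Atf3 (440), Jund (276), Fosb (65.0), Maff (57.9), Batf3 (6.82) and Fosl1 (2.23). The libraries of neighbours in that order overlapped except between Atf3 and Jund, Jund and Fosb, and Maff and Batf3. In arthritic nodes the order was Junb (1075), Jun (411), Fos (114), Jund (76.9), Fosl2 (10.3) and Maff (9.94), followed by Atf3 (2.83), Fosb (1.65), Batf3 (1.27) and Fosl1 (0.587). There Junb was clear of Jun and Jund of Fosl2, and other neighbours overlapped. In control nodes it was Junb (702), Jun (231), Jund (67.3), Fos (35.1), Maff (12.4), Atf3 (1.84) and Fosl2 (1.14), with the others at 0. There the libraries of Jun overlapped those of Jund, Fos those of Maff, and Atf3 those of Fosl2.

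The Fos family made up 24.9% of the summed signal of the 10 members per kb in synovium (21.8% to 30.3% over libraries). It made up 6.95% in arthritic nodes (3.58% to 8.98%) and 3.19% in control nodes (0.510% to 4.71%). Synovial libraries were all above the node libraries in this share, at 22.5% and 21.8% in libraries 1 and 2. The Jun family held 71.9%, 92.3% and 95.4% in the same order. The share of Junb was similar in mean, 62.6%, 65.4% and 68.8%, and its library ranges overlapped. Jun, by contrast, averaged 7.68% of the pool in synovium (4.20% to 11.9% over libraries) and 22.1% in arthritic nodes (8.52% to 33.3%), with overlapping libraries.

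**Figure D4:**
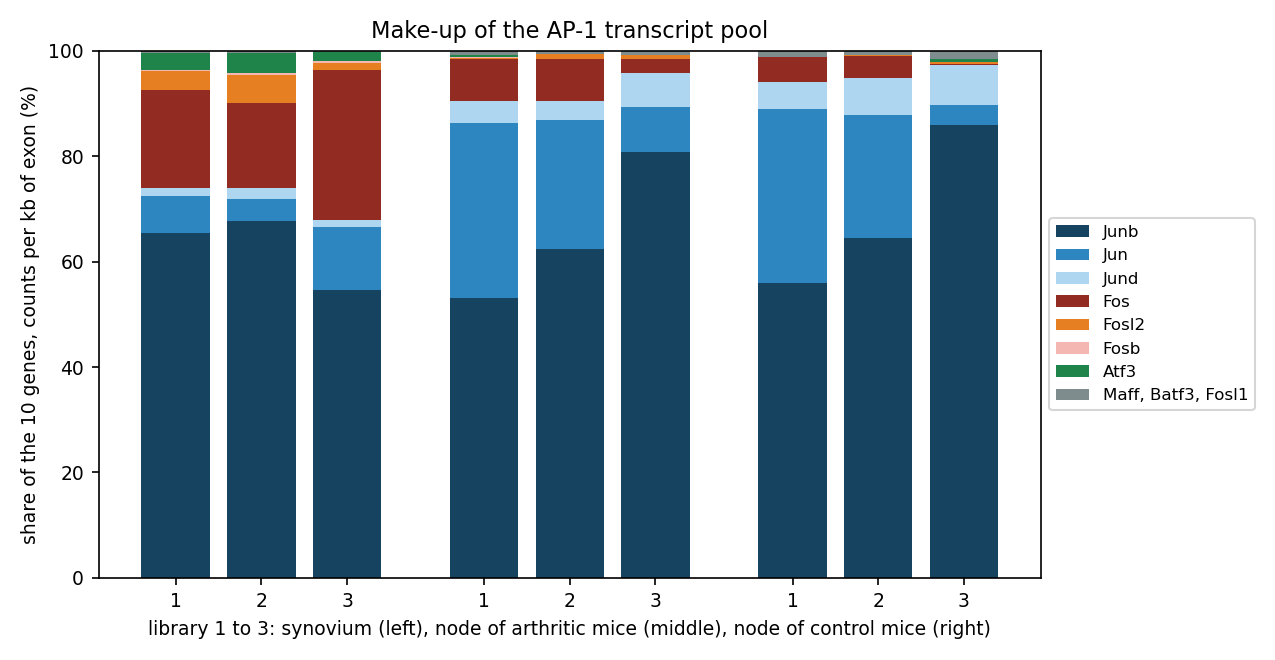
Share of each gene in the summed signal of the 10 members per kb of exon, with 1 bar per library and the 3 groups from left to right. The Fos share runs from 16.1% to 28.5% in synovium and from 0.270% to 8.03% in the node libraries, and Junb is the largest part of every bar.

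Other genes of the pathway were read from lists. Each count below stands beside the 33.8% of all genes tested that were called in the tissue comparison and the 17.9% called higher. Without synovial library 3, 1824 of 11357 genes were called higher and 1623 lower. Other bZIP factors can pair with or compete against AP-1 proteins. Of 19 tested members of a list of these, 9 rose and 1 fell in synovium against the arthritic node (median 0.70), also without synovial library 3. Crem, which encodes repressors and activators of cyclic AMP-responsive genes, rose from 1112 ± 215 to 32543 ± 3874 (4.88 ± 0.16, adjusted p = 3.2e-09). Its mean normalized count in synovium was above that of any AP-1 gene described here, without a correction for gene length. The synovial libraries of Crem and Junb overlapped in count. Nfil3 rose by 4.74 and Mafg, a small Maf like Maff, by 2.09. Cebpb read 49.0 ± 36.9 in synovium and rests on 3 reads in all in arthritic nodes (adjusted p = 0.00744). Batf, an AP-1 partner needed for effector Tregs in tissue, rose by 1.51 ± 0.14 (adjusted p = 7.55e-06). Bach2, a repressor that competes for AP-1 sites and helps keep T cells quiescent, fell by 3.05 ± 0.36 (adjusted p = 4.32e-05), from 801 ± 167 to 105 ± 54.7. None of the 19 was called between the node groups by limma.

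Upstream of AP-1, 8 of 25 tested MAP kinase genes rose and 3 fell in the tissue comparison (median 0.38), or 9 and 3 without synovial library 3. With all 9 libraries, 17.9% of all genes tested were called higher and 33.8% in either direction. Map2k3, an activator of p38, rose by 2.72, Map3k8 by 1.90, the p38 target Mapkapk2 by 1.87 and Braf by 1.31. Map2k6, another p38 activator, fell by 1.54, Rps6ka1 by 1.22 and the p38 isoform Mapk11 by 1.05. None of the 6 genes of serum response factor and its partners passed the test (median 0.05, and -0.24 without synovial library 3). RNA levels do not report the phosphorylation by which these kinases act.

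Of 21 tested genes that restrain the MAP kinase and AP-1 route, 9 rose and 5 fell (median 0.77), with the same counts without synovial library 3. The MAP kinase phosphatase genes Dusp4, Dusp16 and Dusp1 rose by 4.61, 4.30 and 3.62, and Dusp1 reached 40768 ± 1633 in synovium. Dusp8 read 54.7 ± 41.7 in synovium and 0.580 ± 1.00 in arthritic nodes (adjusted p = 0.00476). Spred1 fell by 3.94, Men1, whose product binds JunD, by 1.39, and Dusp7 and Dusp2 by 1.35 and 1.21. The list holds both directions within the same phosphatase family.

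Among 12 factors that bind DNA beside AP-1, 9 rose and none fell (median 0.78), with the same counts without synovial library 3. Rel, an NF-kB subunit, rose by 3.93, Ets2 by 2.58, Nfkb1 by 1.92 and Runx3 by 1.13, while Nfatc1, Nfatc2 and Ets1 did not pass. Of 14 tested textbook AP-1 target genes, 7 rose and none fell (median 1.86), or 8 and none without synovial library 3. Cdkn1a, the cell-cycle inhibitor p21, rose by 6.34, Nr4a1 by 3.42 and Plaur, the urokinase receptor, by 3.01. Il5 read 248 ± 160 in synovium and 0 in all node libraries. Il2, the classic NFAT and AP-1 target that Foxp3 is known to repress, read 10.9 ± 1.39 in synovium and 20.4 ± 15.6 in arthritic nodes and did not pass. Some lists share genes, such as Dusp1, Zfp36 and Nr4a1, so their counts are not independent. Between node groups, Cdkn1a (2.11 ± 0.37, adjusted p = 0.0321), Gadd45b (1.81 ± 0.29, adjusted p = 0.0212) and Socs3 (2.26 ± 0.27, adjusted p = 0.0118) were the list genes called, all higher in arthritis. Of 12 other fits, the call was lost in 8 for Cdkn1a, 9 for Gadd45b and 5 for Socs3, with adjusted p up to 0.410, 0.384 and 0.320. Each was lost with only the 2 node groups fitted. Each was also lost with the mouse number as a block, which joins different animals in this comparison.

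Likeness over the 9 libraries was read among 9008 genes with a mean of 50 or more, leaving out Gm-numbered, Rik and LOC symbols. The genes whose log2 levels correlated most with Fos were Dapp1 (Pearson r = 0.991), Atp6v1e1, Hspa13, Zfyve16 and Ranbp2. For Fosl2 they were Slc4a7 (r = 0.995), Glrx, Icos, Gpr55 and Cdkn1b, and for Atf3 Rabgap1l (r = 0.981), Dkk3, Ifitm2, Bcl2a1d and Dusp14. These correlations describe likeness over libraries that fall into 3 groups. Dapp1 rose far less than Fos in level, from 948 to 1539 in node libraries to 2150 to 2469 in synovium.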

How the data were processed

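RNA was sequenced from Trizol-extracted RNA with a directional kit, per the labels' protocols. Per the submitters' processing notes, the genome was mm10 and the tools included the aligner HISAT2, the counter HTSeq and DESeq2. Versions, annotation and use of strand are "not given in the sources used here". Each deposited signal is the gene read count divided by a size factor per library, checked on the values: 100% of them were whole multiples, within 0.01, of a constant in each library, so the reads could be recovered. The authors' second table gives p-values, log2 fold changes and the Wald statistic as a score per the file headers, which give no direction. A rerun of DESeq2 1.42.0 on recovered reads, synovium over arthritic node, gave its log2 fold changes within 1.36e-06 over 15134 genes.

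The main test was limma 3.58.1 (lmFit, eBayes with trend) in R 4.3.3 on log2(normalized count + 1), over all 9 libraries, two-sided, for 11357 genes whose mean reached 10. Adding 1 shrinks the fold changes of genes with low values. Alternatives changed the pseudocount, filter, variance model, libraries fitted, scaling and test (edgeR 4.0.16 or DESeq2 on recovered reads), added the mouse number as a block, or left out each library. The list counts without synovial library 3 and the other fits of Cdkn1a, Gadd45b and Socs3 were chosen after seeing the data. A group at 0 was set at 3 reads per library. Limits from counts of 0 cover counting error only.

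The members and gene lists were chosen with earlier results of these data known. All 10 members are named, and from other lists up to 4 called genes per direction with the largest change, plus genes needed to read a member. Exon lengths and positions are from GENCODE vM21, whose assembly GRCm38 is another name for mm10, and promoters from RefSeq. Scripts were tested on simulated data. By the titles, the mouse number pairs the libraries of the tissue comparison. Across genes, the residuals of paired libraries correlated at 0.0239, 0.0540 and 0.0891. Node libraries of arthritic and control mice share only a number.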

Additional observations from a re-analysis of the deposited data

How the results depend on the processing

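In 20 alternative settings the tissue comparison called the same number of members, 7, and 3039 to 4065 genes. The comparison of synovium with the control node called 7 to 9 members and 3823 to 4746 genes. It reached 9 without a filter on low values, where Fosl1 passed (adjusted p = 0.0132). The comparison of the node groups was less stable. Its count of members, 1, became 2 with a pseudocount of 0.5, with edgeR and with DESeq2, 0 with only the 2 groups compared and 0 with the mouse number as a replicate block, and ranged from 0 to 1 with libraries left out. Its count of genes, 39, became 10 without a variance trend, 0 with only the 2 groups compared, 173 with DESeq2 and 0 with the replicate block, and ranged from 0 to 66 with libraries left out. The causes were not tested. The block changed no other member's call. Same-numbered node libraries came from different mice and had residual correlations of 0.0046, 0.0665 and 0.0703. The Atf3 difference between node groups turned to -0.12 with quantile normalization and ranged from -1.23 to 1.42 with libraries left out. Quantile normalization moved the median of all genes by -0.12 in the tissue comparison and -0.16 against the control node, and the share of higher calls from 52.9% to 42.2% and from 53.9% to 42.1%. All tested members that were called stayed higher. The depth does not resolve Fosl1 or Batf3, which had at most 12 and 29 reads in a group.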
